A study of Homo sapiens with 6 samples.

Results

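Interferon response genes were followed in IMR90 cells, a line of primary human fetal lung fibroblasts, after depletion of macroH2A1. The genes were 41 members of this response chosen by symbol, among them an interferon, sensors of viral RNA, transcription factors and antiviral effectors, and all 41 were matched to 1 Ensembl identifier each among the 57659 genes of the count files. RIGI was found under its older symbol DDX58. The cells of the 3 knockdown libraries expressed a short hairpin RNA against macroH2A1, a histone H2A variant with a large globular domain, and those of the 3 control libraries a hairpin against luciferase, which human cells do not have. No interferon or other treatment is given in the labels, so control values are basal levels of cells that also carry a hairpin. The 3 libraries of a group are described as biological replicates. The labels do not say whether they came from separate infections or how many hairpin sequences were used, so p-values measure the spread between these libraries.

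Cells that detect viral nucleic acid make type I interferon. The secreted interferon binds its receptor and activates the kinases JAK1 and TYK2, which phosphorylate STAT2. Together with IRF9 it acts in a complex that binds the interferon-stimulated response element in the promoters of its target genes, many of whose products block viral replication, and unstimulated fibroblasts are known to keep most of these genes at a low level.

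Depth was 3741087 to 5322851 gene counts in the knockdown libraries and 3744716 to 6421605 in the control libraries. MACROH2A1 was at 40.9 ± 2.51 counts per 1000000 (CPM, scaled by the trimmed mean of M-values) in knockdown and 88.3 ± 3.62 CPM in control (SD, n = 3 each; log2 fold change -1.11, SE 0.08, edgeR adjusted p = 0.000917). Of the markers of the labelled cell type, all 10 fibroblast markers listed were expressed at a testable level, and VIM held 6335 or more counts in every library. PTPRC, which marks blood cells, had 1 count in each group, and CD3E, CLEC4C and IL3RA had none, while CD4 and CD68 had 139 and 60 summed counts in knockdown and 130 and 90 in control, and neither was called by edgeR. The summed level of the 9 blood and immune markers was 13.7 to 16.3 CPM in knockdown and 13.8 to 18.8 CPM in control. The fibroblast, endothelial and epithelial marker lists did move, at summed levels of 12015 to 12768 against 7490 to 8544 CPM, 137 to 145 against 60.8 to 65.4 CPM, and 7.52 to 11.8 against 27.2 to 29.1 CPM (knockdown against control). Of these lists of 10, 6 and 8 genes, 10, 2 and 2 were tested. Among those tested, 6, 2 and 0 were called higher by edgeR and 0, 0 and 1 lower. For comparison, 3.90% of all genes tested were called higher and 4.31% lower. Of the endothelial markers, TEK was at 132 ± 4.85 CPM in knockdown and 62.3 ± 2.06 CPM in control, KDR had 111 summed counts in knockdown and 5 in control, and PECAM1 had none in any library. CDH5 and CLDN5 each had 1 count in knockdown and 0 in control, and VWF had 8 and 17. Of the epithelial markers, KRT18 was at 8.19 ± 2.64 CPM in knockdown and 24.5 ± 1.54 CPM in control (SD, n = 3 each), and SFTPB had no count in any library. EPCAM, CDH1 and SFTPC had 2, 1 and 0 summed counts in knockdown and 5, 1 and 1 in control. NKX2-1 and KRT5 had 1 and 2 in knockdown and 0 in control, and KRT8 had 22 and 48. In bulk RNA, fewer cells of a type and less RNA per cell cannot be told apart, and the part of these markers in the results was not tested.

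Start-site sequences of the members are shown because they hold the interferon-stimulated response element, the known binding site of the complex that holds STAT2 and IRF9, in many of these genes. RefSeq windows of 300 bases (250 before and 50 from the annotated start; build GRCh38.p14) were at hand for 33 of the 41 members, several with more than 1 start. The core of the element was searched as GAAA, any 2 bases and GAAA again, on both strands (TTTC, any 2 bases and TTTC when read on the other strand), with overlapping matches counted separately. The core was in a window of 21 of 33 members (63.6%), against 1195 of 27305 genes with a window (4.38%). The windows of 4 members that the results turn on follow, 5′ to 3′ on the gene's own strand, with matches in capitals. IFIT1 was the 1 member called with edgeR, IFIT3 is its paralog with the lowest fold change, and EIF2AK2 and STAT2, called by DESeq2, were the most abundant members that had non-overlapping groups.
IFIT1 (chr10:89392373-89392672, plus strand): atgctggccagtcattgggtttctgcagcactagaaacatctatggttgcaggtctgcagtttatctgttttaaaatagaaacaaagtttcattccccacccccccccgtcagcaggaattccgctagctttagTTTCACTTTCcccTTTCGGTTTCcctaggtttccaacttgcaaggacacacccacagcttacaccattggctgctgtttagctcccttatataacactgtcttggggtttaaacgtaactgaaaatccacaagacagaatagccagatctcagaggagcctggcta
IFIT3 (chr10:89332279-89332578, plus strand): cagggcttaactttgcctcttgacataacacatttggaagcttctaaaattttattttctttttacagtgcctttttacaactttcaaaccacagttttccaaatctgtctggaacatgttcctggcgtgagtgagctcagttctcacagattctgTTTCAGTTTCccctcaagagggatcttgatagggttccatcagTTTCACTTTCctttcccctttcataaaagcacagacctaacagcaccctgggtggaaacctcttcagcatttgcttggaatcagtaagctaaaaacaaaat
EIF2AK2 (chr2:37156931-37157230, minus strand): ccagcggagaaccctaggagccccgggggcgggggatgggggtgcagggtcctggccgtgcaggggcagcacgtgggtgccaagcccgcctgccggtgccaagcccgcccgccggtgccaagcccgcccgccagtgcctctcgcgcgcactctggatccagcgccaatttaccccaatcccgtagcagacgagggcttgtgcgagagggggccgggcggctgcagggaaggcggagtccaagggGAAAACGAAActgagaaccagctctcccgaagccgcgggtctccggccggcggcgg
STAT2 (chr12:56360058-56360357, minus strand): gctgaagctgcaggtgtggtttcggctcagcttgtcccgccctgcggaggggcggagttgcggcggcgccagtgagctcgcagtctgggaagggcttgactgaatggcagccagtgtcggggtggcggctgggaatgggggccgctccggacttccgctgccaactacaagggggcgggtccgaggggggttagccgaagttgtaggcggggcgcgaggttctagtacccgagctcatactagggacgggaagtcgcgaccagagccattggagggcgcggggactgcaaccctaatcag
IFIT1 and IFIT3 each hold 2 matches here, EIF2AK2 holds 1 close to its start, and STAT2 holds none in this window.

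**Figure D1:**
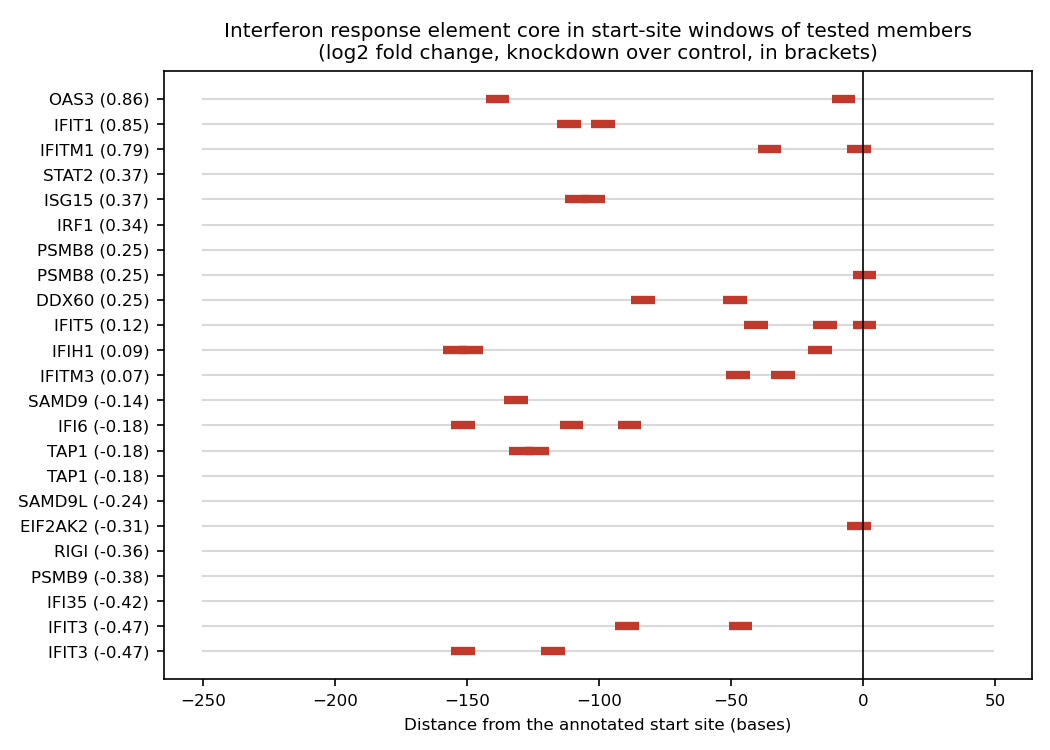
Matches to the interferon response element core (red) in the annotated start-site windows of tested members, by distance from the start site in bases. Windows are ordered from the highest to the lowest log2 fold change, knockdown over control (in brackets), and genes with 2 starts have 2 lines; matches stand on both sides of the order, in OAS3 and IFIT1 at the top and in both windows of IFIT3 at the bottom.

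Matches were found in members estimated higher and in members estimated lower. Of 20 tested members with a window, 14 held the core, and 9 of these had positive and 5 negative log2 fold changes, with a range of -0.47 to 0.86 and a median of 0.10. The 6 without it had 2 positive and 4 negative values and a median of -0.30. No test was run on this split.

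Most members were low in control fibroblasts. Mean control levels were under 1 CPM for 16 members, between 1 and 10 CPM for 15 and at least 10 CPM for 10. In all, 23 members passed the filter for testing (about 10 counts, or 2.24 CPM, in 3 or more libraries) and 18 did not. Divided by the summed exon length of each gene, the control level of the 23 tested members had a median of 2.93 CPM per kilobase, against 4.18 over 12920 tested genes with a length. Since a member can pass the filter through either group, this median describes expressed members and not the whole set.

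The most abundant members per length were STAT2, the partner of IRF9, at 17.3 ± 2.21 CPM per kilobase in control (SD, n = 3), and IFITM3, which keeps enveloped viruses from fusing with cell membranes, at 15.0 ± 3.53. They were followed by EIF2AK2, the kinase PKR that stops translation when it binds double-stranded RNA, at 11.5 ± 1.13, and TRIM22, an antiviral ubiquitin ligase, at 9.81 ± 0.997. IFIT5, IFI6, ISG15 and RIGI came next, at 7.29 ± 1.48, 5.86 ± 0.874, 5.81 ± 1.39 and 5.57 ± 0.502 CPM per kilobase. Of the 9 pairs of neighbours among the first 10 ranks, 7 had overlapping ranges over the control libraries, so their order is not resolved; the steps that did not overlap were those from EIF2AK2 to TRIM22 and from TRIM22 to IFIT5. At the other end, RSAD2, OASL, HERC5 and IFNB1 had no count in any control library.

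**Figure D2:**
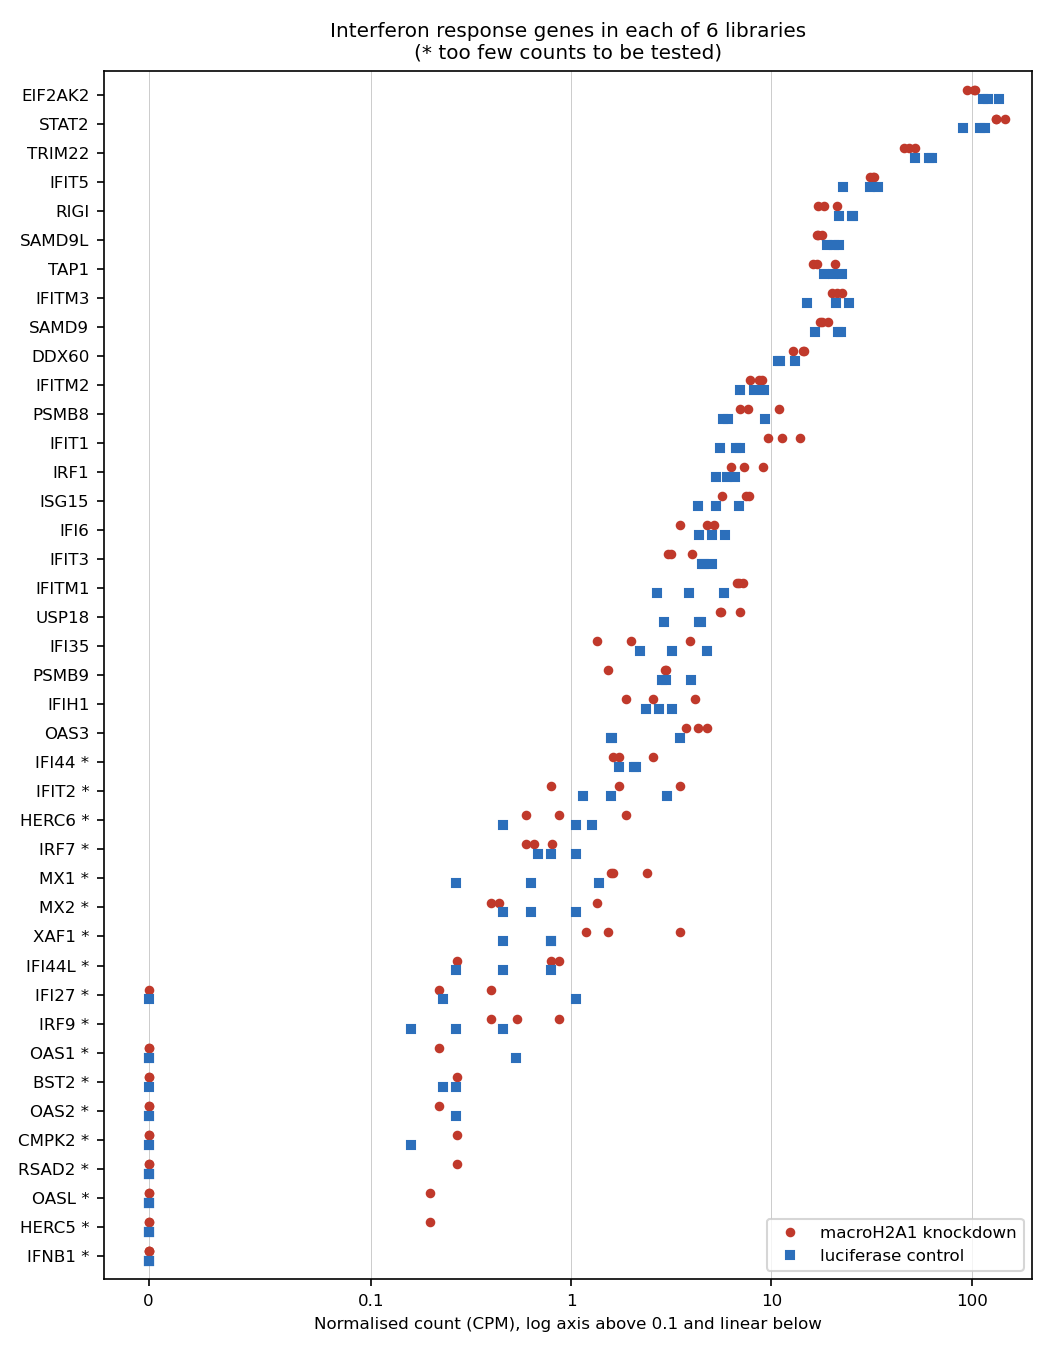
Normalised count (CPM; logarithmic axis above 0.1, linear below) of all 41 members in each knockdown library (red circles) and each control library (blue squares), ordered by control mean. Members span from 0 for IFNB1 to over 100 CPM for EIF2AK2 and STAT2, and among the members tested (no asterisk) 5 lie wholly higher and 5 wholly lower in knockdown.

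Of the interferon response genes, IFIT1 was called by edgeR after knockdown of macroH2A1 and no other member was. Of the 23 tested members, 1 rose, 0 fell and 22 did not pass (edgeR, quasi-likelihood, with p adjusted over 13445 genes by Benjamini-Hochberg and a threshold of 0.05). Among all genes tested 8.21% were called, 3.90% higher and 4.31% lower. Log2 fold changes, knockdown over control, were positive for 13 and negative for 10 tested members, against 50.8% positive among all genes tested, and ran from -0.47 to 0.86, with a median of 0.07 against 0.01 over all genes tested. The summed level of the 41 members was 504 to 520 CPM in knockdown and 492 to 532 CPM in control. At an unadjusted p under 0.05 there were 8 of 23 members, 5 higher and 3 lower, against 24.6% of all genes tested. The groups did not overlap for 10 tested members, 5 higher and 5 lower, against 30.4% of all genes tested.

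For 16 of the 23 tested members the 95% interval of the log2 fold change lay between -1 and 1, which leaves out a 2-fold change in either direction. The interval of the other 7 reached a 2-fold change: IFIT1, OAS3, IFITM1 and USP18 on the higher side and IFIT3, PSMB9 and IFI35 on the lower side. Counts were low for these 7, at 33 to 156 in the knockdown libraries together. Counts in this range also occurred among the 16: IFIH1, IFI6, ISG15 and IRF1 had 39, 61, 93 and 100.

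**Figure D3:**
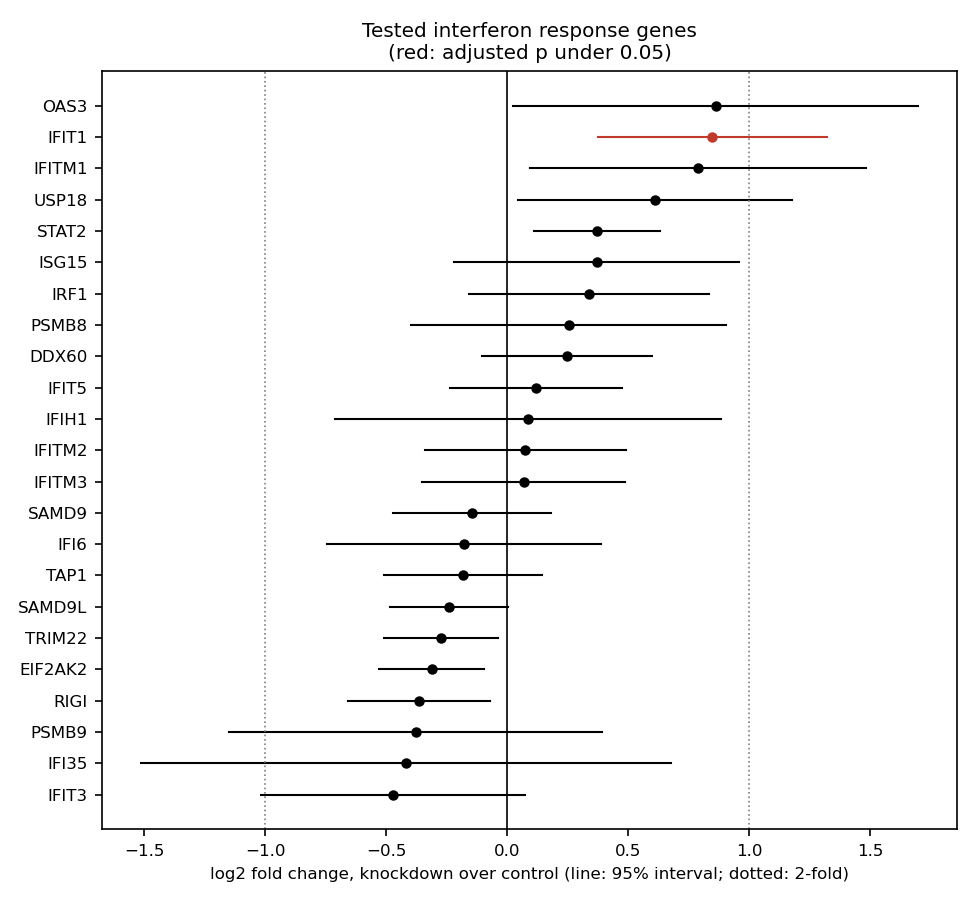
Log2 fold change, knockdown over control, of the 23 tested members (points) with 95% intervals (lines); dotted lines mark a 2-fold change and red marks an adjusted p under 0.05. IFIT1 at 0.85 is the 1 red point, and 16 intervals stay within the dotted lines.

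The IFIT proteins bind viral RNA, and IFIT1 recognises RNA whose cap lacks methylation. IFIT1 (ENSG00000185745, chromosome 10) had 70, 44 and 42 counts in the knockdown libraries, against 44, 29 and 21 in the control libraries. Scaled, this was 13.8, 9.57 and 11.3 CPM in knockdown and 6.96, 6.63 and 5.55 CPM in control, so every knockdown library lay above every control library. It rose 1.80-fold, to 11.6 ± 2.15 CPM in knockdown against 6.38 ± 0.738 CPM in control (SD, n = 3 each; log2 fold change 0.85, SE 0.20, edgeR adjusted p = 0.0488). The call is marginal: it was lost in 10 of 16 alternative settings, among them each of the 6 that left out 1 library, with adjusted p from 0.00513 to 0.128 and a log2 fold change of 0.70 to 0.97 throughout.

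The other IFIT genes, which lie beside IFIT1 on chromosome 10, were not called. IFIT3 had 16, 14 and 15 counts in knockdown and 29, 22 and 17 in control, 3.41 ± 0.531 against 4.70 ± 0.287 CPM (SD, n = 3 each), with every knockdown library below every control library (log2 fold change -0.47, SE 0.22, edgeR adjusted p = 0.265). IFIT5 had 162, 143 and 121 counts in knockdown and 215, 99 and 118 in control, and the groups overlapped (log2 fold change 0.12, SE 0.15, edgeR adjusted p = 0.688). IFIT2 was too low to test, at 25 summed counts in knockdown and 30 in control. These genes are related in sequence, and reads that aligned to several places were not counted. Whether the difference between IFIT1 and IFIT3 exceeds their errors was not tested.

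Among the transcription factors, STAT2 (chromosome 12) had 666, 606 and 547 counts in knockdown, against 734, 482 and 342 in control. In CPM these were 132, 132 and 147 in knockdown and 116, 110 and 90.4 in control, which did not overlap. Its log2 fold change of 0.37 (SE 0.11) did not pass the edgeR test (adjusted p = 0.0897). DESeq2 called STAT2 higher (adjusted p = 0.0163), and so did edgeR with a robust prior (adjusted p = 0.0262). IRF1, which also acts downstream of interferon gamma, was at 7.58 ± 1.42 CPM in knockdown and 5.96 ± 0.676 CPM in control (SD, n = 3 each; log2 fold change 0.34, edgeR adjusted p = 0.375). IRF7, which drives interferon alpha genes, and IRF9, which brings the STAT complex to DNA, were too low to test, at 9 and 8 summed counts in knockdown and 12 and 4 in control.

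IFNB1, the gene of interferon beta, had no count in any of the 6 libraries. With 28153981 gene counts in all, a count of 0 allows up to 0.107 counts per 1000000; like the other limits and count intervals given here, this covers counting error only.

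The sensors were expressed without a called change. RIGI (chromosome 9), the helicase RIG-I that detects short viral RNA, had 86, 98 and 68 counts in knockdown and 162, 95 and 96 in control. Its level was 18.8 ± 2.22 CPM in knockdown and 24.2 ± 2.19 CPM in control (SD, n = 3 each), non-overlapping and with a log2 fold change of -0.36 that did not pass (SE 0.12, edgeR adjusted p = 0.127). IFIH1, the helicase MDA5 that detects long double-stranded RNA, had 39 summed counts in each group (log2 fold change 0.09, SE 0.34). DDX60, a helicase that aids RIG-I-like receptors, had overlapping groups (log2 fold change 0.25, SE 0.14, edgeR adjusted p = 0.359).

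EIF2AK2, TRIM22, SAMD9L and SAMD9, the 4 tested genes of a mixed group of other antiviral effectors, had negative log2 fold changes, and none passed with edgeR. EIF2AK2 (chromosome 2) had 523, 434 and 382 counts in knockdown and 870, 498 and 458 in control. Its CPM values were 103, 94.4 and 102 in knockdown and 138, 114 and 121 in control, all lower in knockdown (log2 fold change -0.31, SE 0.09, edgeR adjusted p = 0.0893). DESeq2 called it lower (adjusted p = 0.0414), and so did edgeR with a robust prior (adjusted p = 0.0342). TRIM22 (chromosome 11) had 262, 223 and 171 counts in knockdown and 330, 269 and 240 in control, a difference of -0.28 on the log2 scale (SE 0.10, edgeR adjusted p = 0.145). Its highest knockdown library, at 51.8 CPM, lay just below its lowest control library, at 52.2. SAMD9L and SAMD9, a neighbouring pair that restricts poxviruses, had log2 fold changes of -0.24 and -0.14 (edgeR adjusted p = 0.211 and 0.584). Together the 8 members of this group summed to 179 to 193 CPM in knockdown and 214 to 233 CPM in control, of which EIF2AK2 and TRIM22 made up the most.

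The ISG15 conjugation system, which attaches a ubiquitin-like protein to viral and host proteins, summed to 13.5 to 15.0 CPM in knockdown and 9.97 to 10.8 CPM in control. Almost all of this came from ISG15 itself and from USP18, the protease that removes ISG15 and dampens receptor signalling. USP18 (chromosome 22) had 28, 32 and 21 counts in knockdown and 28, 19 and 11 in control, 6.04 ± 0.796 against 3.89 ± 0.855 CPM (SD, n = 3 each), non-overlapping but not passing (log2 fold change 0.61, SE 0.24, edgeR adjusted p = 0.176). ISG15 (chromosome 1) had 39, 26 and 28 counts in knockdown and 27, 23 and 26 in control, with overlapping groups (log2 fold change 0.37, SE 0.25, edgeR adjusted p = 0.417). HERC5, the main human ligase for ISG15, had 1 count in knockdown and 0 in control, and its relative HERC6 had 14 in each group.

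Of the IFITM membrane proteins, IFITM1 had 35, 33 and 25 counts in knockdown and 17, 17 and 22 in control. Every knockdown library, at 6.70 to 7.18 CPM, lay above every control library, at 2.69 to 5.81 CPM, but the test did not pass (log2 fold change 0.79, SE 0.29, edgeR adjusted p = 0.157). IFITM2 and IFITM3 had log2 fold changes of 0.07 and 0.07 with overlapping groups; IFITM3 had 101, 104 and 79 counts in knockdown and 133, 107 and 57 in control. In GENCODE 29 the exons of IFITM1 and IFITM2 share 351 bases on the same strand, and the effect of this on their counts was not tested. Altogether 16 members, 10 of them tested, share exon bases with another counted gene, and the strand setting of the counting is not given in the sources used here; IFIT1 and STAT2 are not among the 16. The OAS enzymes make oligoadenylates that switch on RNase L. OAS3 had 19, 22 and 16 counts in knockdown and 22, 7 and 6 in control, non-overlapping in CPM but not passing (log2 fold change 0.86, SE 0.35, edgeR adjusted p = 0.192). Its log2 fold change was 1.41 without control library 1 and 0.68 without control library 2. OAS1, OAS2 and OASL had 1 count each in knockdown and 2, 1 and 0 in control.

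MX1 and XAF1 were too low for the test and had more counts in knockdown. MX1, a GTPase that traps viral nucleocapsids, had 8, 11 and 6 counts in knockdown and 4, 6 and 1 in control, a ratio of summed counts of 2.46 (exact 95% counting interval 1.17 to 5.53). XAF1, a pro-apoptotic interferon target, had 6, 7 and 13 counts in knockdown and 5, 2 and 3 in control, a ratio of 2.81 (1.31 to 6.53). Neither group pair overlapped in CPM. For comparison, the groups did not overlap for 30.4% of all genes tested, which do not include these low genes. MX1 and XAF1 are set apart from the 18 members not tested because of these ratios. For the others of the 18, every interval that could be calculated held 1. With 1 library left out, a calculation added after seeing the data, the ratio of MX1 was 3.77 without control library 2 (1.42 to 12.6), and its interval held 1 without knockdown library 2 (0.884 to 5.10), control library 1 (0.915 to 5.96) or control library 3 (0.926 to 4.66). That of XAF1 was 1.95 without knockdown library 3 (0.790 to 4.97). With the filter lowered to a total of 20 counts, neither passed (edgeR adjusted p = 0.251 for MX1 and 0.187 for XAF1).

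The remaining members showed no called change. IFI6, a mitochondrial protein that delays apoptosis, had 26, 22 and 13 counts in knockdown and 37, 19 and 19 in control (log2 fold change -0.18, SE 0.24), and IFI35 a log2 fold change of -0.42 (SE 0.46). PSMB8 and PSMB9, subunits of the immunoproteasome, and TAP1, which carries peptides into the endoplasmic reticulum for class I presentation, had log2 fold changes of 0.25, -0.38 and -0.18 with edgeR adjusted p of 0.631, 0.534 and 0.468. IFI44 had 27 summed counts in knockdown and 28 in control, IFI44L 9 and 8, IFI27 3 and 5, and MX2 9 and 10. BST2, the tether that holds budding virions, had 1 count in knockdown and 2 in control, RSAD2, or viperin, had 1 and 0, and CMPK2, its neighbour on chromosome 2, had 1 and 1. At this depth a difference in the last 3 was not detectable.

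**Figure D4:**
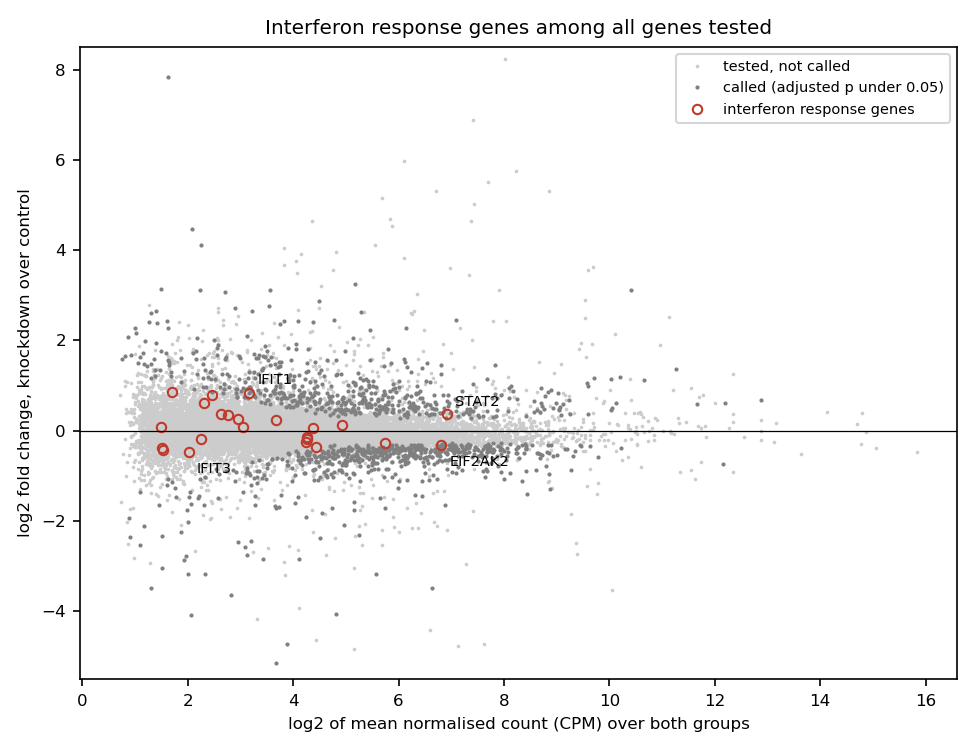
Log2 fold change, knockdown over control, against the log2 mean CPM over both groups for the 13445 genes tested (grey; dark grey where called), with the 23 tested interferon response genes circled in red. The circles lie between -0.47 and 0.86, and the genes as a whole spread from -5.14 to 8.23, a range that widens with the number of genes. The median absolute log2 fold change was 0.312 for the 23 members and 0.225 over all genes tested.

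The authors' deposited table listed 29 of the 41 members, and 3 of them had an adjusted p in it under 0.05, against 12.0% of its 11638 genes: IFIT1 at a log2 ratio of 0.87 (adjusted p = 0.0151), STAT2 at 0.38 (adjusted p = 0.0226) and EIF2AK2 at -0.30 (adjusted p = 0.0135). DESeq2 called 2 of the 23 members, STAT2 higher and EIF2AK2 lower, against 9.55% of all genes it tested. IFIT1, EIF2AK2 and STAT2 also had the smallest unadjusted p of the tested members in edgeR. They do not share a direction.

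Of the wider interferon pathway, 125 further genes were listed by role, all but 2 were matched and 74 were tested. Among these 4 rose and 4 fell, again with 8.21% of all genes tested called, and the median log2 fold change was 0.02. Leaving out knockdown library 1, 2 or 3 gave 2, 1 or 1 pathway calls, and leaving out control library 1, 2 or 3 gave 0, 1 or 2. The share of all genes called also fell in these settings, to between 3.06% and 4.04%.

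None of the 20 other interferon genes reached the filter. Counts were found for 1 of them, IFNE, an interferon of epithelial tissues, with 9 in knockdown and 11 in control. Reads that aligned to several places were not counted, and the effect of this on these interferon genes was not tested. JAK1, a kinase of the receptor, was at 151 ± 11.6 CPM in knockdown and 144 ± 6.17 CPM in control (SD, n = 3 each), and none of 8 tested genes of this role passed (2 at an unadjusted p under 0.05, and 0 called by DESeq2). None of the 4 tested STAT and IRF genes and none of the 12 tested genes of class I antigen presentation passed with edgeR, with 2 and 4 of them at an unadjusted p under 0.05. DESeq2 called 1 gene in each of these roles. Over all genes tested, 24.6% had an unadjusted edgeR p under 0.05, and DESeq2 called 9.55%. B2M, the light chain of class I molecules, was at 294 ± 5.61 CPM in knockdown and 257 ± 16.8 CPM in control (SD, n = 3 each; edgeR adjusted p = 0.174). The 14 genes of class I presentation summed to 723 to 725 CPM in knockdown and 628 to 693 CPM in control.

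The genes that rose were SOCS3, WARS1, APOL6 and RNF213. SOCS3, a feedback inhibitor of cytokine receptors, was at 75.8, 57.0 and 71.3 CPM in knockdown and 41.9, 41.2 and 48.6 CPM in control (1.55-fold, edgeR adjusted p = 0.0316). WARS1, a tryptophan tRNA synthetase induced by interferon gamma, was at 134, 151 and 153 CPM in knockdown and 99.8, 91.7 and 107 CPM in control (1.47-fold, edgeR adjusted p = 0.0157). APOL6, of the apolipoprotein L family, was 1.56-fold higher, and RNF213, a large ubiquitin ligase, 1.35-fold higher (edgeR adjusted p = 0.0239 and 0.0183). In each of these 4 genes the 3 knockdown libraries lay above the 3 control libraries, as they did in 14.5% of all genes tested. The genes were chosen by a test on the same values, so this adds no support.

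The genes that fell were GBP1, TRAF3, SP100 and ZNFX1. GBP1, a GTPase that attacks intracellular pathogens, was at 32.0, 41.3 and 40.7 CPM in knockdown and 57.6, 59.2 and 49.4 CPM in control (log2 fold change -0.55, edgeR adjusted p = 0.0454). TRAF3, an adaptor between RNA sensors and interferon induction, was at 15.9 ± 1.14 CPM in knockdown and 22.2 ± 0.858 CPM in control (SD, n = 3 each; log2 fold change -0.48, edgeR adjusted p = 0.0346). SP100, a nuclear body protein, and ZNFX1, a helicase that senses viral RNA, had log2 fold changes of -0.45 and -0.34 (edgeR adjusted p = 0.0229 and 0.0402). In each of the genes that fell, every knockdown library lay below every control library, as in 15.9% of all genes tested. They too were chosen by a test on the same values. Of 16 alternative settings, the call was lost in 10 for TRAF3 and ZNFX1, 9 for GBP1, 6 for SOCS3, SP100 and RNF213 and 5 for WARS1 and APOL6.

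**Figure D5:**
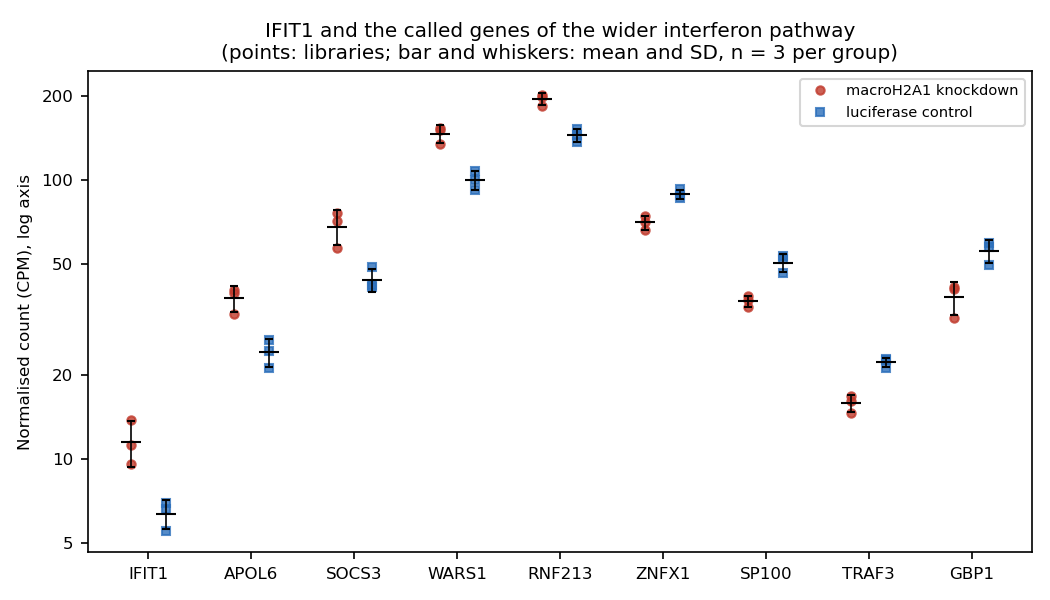
Normalised count (CPM, logarithmic axis) of IFIT1 and of the 8 called genes of the wider pathway in each knockdown library (red, left) and control library (blue, right), with mean and SD (n = 3 per group). IFIT1 is the lowest of the 9 genes, at 5.55 to 13.8 CPM; the 5 genes on the left are higher in knockdown and the 4 on the right lower.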

How the data were processed

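RNA was measured in 6 libraries, 3 of macroH2A1 knockdown and 3 of luciferase control. Per the submitters' processing notes, CASAVA 1.7, GSNAP, HTSeq and DESeq 1.10.1 were used on hg19; no annotation or strand setting is named in them. The authors deposited raw counts per Ensembl gene for each library, and a table of protein-coding genes with mean signal over libraries (counts divided by size factors), ratio of group means, log2 ratio and p-values. Summary lines without a gene were not used: 64.4 to 66.6% of entries in knockdown and 67.6 to 68.8% in control were alignments that were not unique.

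Counts were tested with edgeR 4.0.16 (R 4.3.3): filterByExpr (about 10 counts in 3 libraries), TMM, a quasi-likelihood test on group alone over all genes, and Benjamini-Hochberg adjustment with a threshold of 0.05. Intervals (95%) come from that test; those of genes too low to test are exact intervals of a ratio of summed counts. Levels per kilobase use GENCODE 29 exon lengths and start-site sequences come from RefSeq (GRCh38.p14), both of another build than the alignments, joined by gene identifier or symbol. All 41 members are named. Counts by library are given for called members, the 8 of smallest p and the 8 of highest level per kilobase. Pathway genes are named where called, otherwise those among the 5 of highest level, of which 2 are not reported here, and a few low ones were named after their values were seen. The members and lists were chosen with earlier results of these data known. The script was tested on simulated data. Alternatives were other normalizations, filters, gene sets and tests (DESeq2 1.42.0, limma-voom 3.58.1, a robust prior, a replicate block), a threshold of 0.1, and leaving out each library.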

Additional observations from a re-analysis of the deposited data

How the results depend on the processing

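Genes called numbered 1104, and 2042 among genes of the authors' table only, 416 with the replicate block, 1881 at an adjusted p under 0.1 and 427 to 564 with 1 library left out. Members called numbered 1, and 0 among genes with at least 20 counts, 4 among genes of the authors' table only (EIF2AK2, IFIT1, IFITM1 and STAT2; 19.5% of all genes in that setting), 0 with the replicate block, 2 with DESeq2 (EIF2AK2 and STAT2; 9.55% of all genes), 0 with limma-voom, 3 with a robust prior (EIF2AK2, IFIT1 and STAT2; 11.5% of all genes), 3 at an adjusted p under 0.1 (14.0% of all genes) and 0 to 0 with 1 library left out. Pathway genes called numbered 8, and 5 on library totals without TMM, 17 among genes of the authors' table only, 0 with the replicate block, 14 at an adjusted p under 0.1 and 0 to 2 with 1 library left out. The shares of all genes called were 5.22% among genes with at least 20 counts, 9.07% with limma-voom and 7.35% on library totals. They were 3.09% with the replicate block and 3.06 to 4.04% with 1 library left out. With 1 library left out, the log2 fold change changed sign for IFIH1 (-0.27 to 0.29), IFIT5 (-0.037 to 0.25), IFITM2 (-0.028 to 0.17) and IFITM3 (-0.10 to 0.22). Of 496 values of single genes under alternatives, 417 kept direction and call, 67 lost the call, 7 gained it and 5 changed sign. Only IFIT1 and the 8 pathway genes called in the main fit could lose a call, so all 67 losses are theirs. The other genes were uncalled and counted as kept by staying so, and the 417 are therefore no measure of how stable the calls are. The cause of these changes was not tested.

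Whether the replicate numbers pair the samples cannot be settled here, since deviations from the mean of 3 libraries depend on each other. Deviations of same-numbered libraries correlated at -0.0345, -0.0284 and -0.199 over 10957 genes, and no library correlated best with its own number. Depth limits the 18 members that were not tested.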

Other observations

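Of the genes of the wider pathway that were too low to test, DHX58, the RIG-I-like receptor LGP2, had 9, 9 and 5 counts in knockdown and 2, 0 and 6 in control, and the groups overlapped in CPM. The ratio of its summed counts was 3.11 (exact 95% counting interval 1.34 to 8.04), and it was 9.19 (2.27 to 80.4) without control library 3, 2.34 (0.925 to 7.01) without control library 1 and 2.17 (0.937 to 5.61) without control library 2. APOL1, an apolipoprotein L gene, had 4 summed counts in knockdown and 14 in control (ratio 0.309, 0.0741 to 0.984). With 1 library left out its ratio was 0.248 to 0.355, and the interval held 1 except without control library 1. TICAM1, the adaptor of TLR3, had 19 and 34 (ratio 0.604, 0.326 to 1.09). These 3 genes and the leaving out of libraries were chosen after the values were seen, and no test across libraries was made.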
